A study of Rattus norvegicus with 8 samples.

Results

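Class I antigen presentation and the immunoproteasome were followed through 9 gene symbols: the heavy chain genes RT1-CE2 and RT1-CE6, B2m, Tap1, Tap2, Tapbp, Psmb8, Psmb9 and Psmb10. Members were the features of the deposited count table whose ID equals one of these symbols. That held for 8 of the 9 symbols among 32258 features. Tap2 is no feature ID as such, and the table lists the gene as Tap2_1 and Tap2_2, which are described separately because they fall outside the rule. All 8 members passed the filter on low counts.

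Class I molecules show peptides from inside the cell to CD8+ T cells. Proteasomes cut cytosolic proteins into peptides, and the immunoproteasome, in which Psmb8, Psmb9 and Psmb10 replace the constitutive catalytic subunits Psmb5, Psmb6 and Psmb7, shapes which peptides are made. The Tap1 and Tap2 transporter moves peptides into the endoplasmic reticulum, tapasin (Tapbp) holds the transporter and the empty heavy chain together, and B2m is the light chain of the finished complex. Interferon, acting through Irf1 and the transactivator Nlrc5 among others, is the textbook inducer of these genes, which most nucleated cells also express at a basal level.

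The study used H9C2, a myoblast line derived from embryonic rat heart. Cells received the vector pDC316 for 2 days, and every group carried YFP, the yellow fluorescent protein. The YFP group received YFP alone. The WT group received YFP joined to wild-type PPARalpha, a nuclear receptor for fatty acids and fibrate drugs. The S280A group received the same fusion with serine 280 changed to alanine, which the labels call resistant to phosphorylation, and the S280D group the change to aspartate, called a mimic of phosphorylation. Each group had 2 libraries of poly(A) RNA. All 4 groups share 1 immortalized line with its own rat Ppara gene, and the labels name no promoter for the insert. Whether the 2 libraries of a group are separate cultures is not stated, so the p-values below describe the spread of these 8 samples alone, and that spread may be technical. The mutants differ at the residue under study, so the comparisons ask whether these genes respond to PPARalpha and to the state of serine 280.

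Libraries held between 14018785 and 39526013 exon reads, and S280D replicate 1 was the deepest. Levels are given as CPM, read counts scaled to library depth after TMM normalization. Ppara stood at 59.5 and 74.4 CPM with YFP and between 12382 and 24134 CPM with the 3 receptor constructs, where reads from the insert and from the cell's own gene cannot be told apart. Of 12 muscle markers, 6 were below 1 CPM in every library, among them Myod1, Myf5, Myog, Des and Nkx2-5. Tnnt2 stood at 129 to 265 CPM, Mef2c at 19.7 to 68.7, Cdh15 at 6.40 to 15.2 and Gata4 at 6.01 to 10.7. Actc1 and Myh3 reached at most 1.33 and 1.45 CPM. The muscle markers summed to 230 to 327 CPM with YFP, 201 to 236 with WT, 264 to 268 with S280A and 300 to 301 with S280D. Fibroblast markers summed to 66248 to 73117 CPM with YFP, 45887 to 52315 with WT, 64082 to 74767 with S280A and 50466 to 54659 with S280D, led by Col1a1, with Pdgfra below 1 CPM. Endothelial markers, 7 of 8 of them in the table, summed to 15.6 to 20.7 CPM with YFP, 12.3 to 13.5 with WT, 16.6 to 18.2 with S280A and 10.8 to 11.8 with S280D. These sums were mostly 1 gene, Egfl7, at 9.38 to 19.4 CPM. Of the 7 endothelial markers, 5 were below 1 CPM in every library, and Emcn had no read. The part of these shifts in the results below was not tested. Markers of leukocytes, which carry much class I RNA, summed to between 0.403 and 2.32 CPM, with Ptprc and Tyrobp without a read. In bulk RNA, fewer cells of a type and less RNA per cell cannot be told apart.

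The members differed widely in how far their reads belong to them alone. The table gives total exon reads and, separately, exon reads that match a single place. Over the 8 libraries, unique reads made up 99.99% of the reads of B2m and Psmb10, 99.9% of those of Tapbp and Psmb9, and 98.3% of those of Tap1. The share was 51.5% for Psmb8, 41.2% for RT1-CE2 and 8.40% for RT1-CE6. The median over all tested features was 99.95%, and 9.93% of features had under 50% unique reads. The 2 heavy chain members and Psmb8 were therefore read on both scales.

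**Figure D1:**
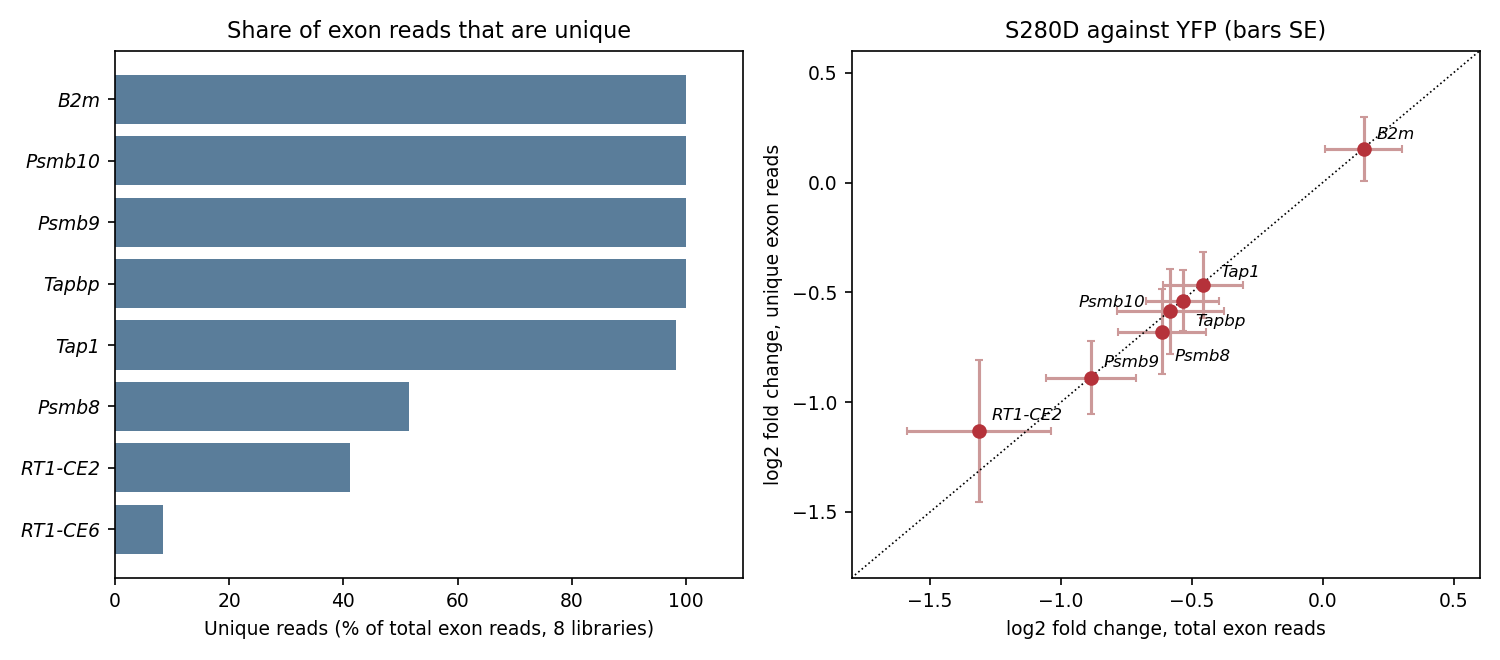
Left, unique exon reads as a percentage of total exon reads for each member, pooled over 8 libraries; right, log2 fold change of S280D over YFP from total reads (horizontal) and unique reads (vertical) with standard errors, the dotted line marking equality. RT1-CE6 has the lowest share, 8.40%, and is not on the right because it was not testable on unique reads; the other 7 members lie near the line.

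The rat heavy chain genes RT1-CE2 and RT1-CE6 belong to the CE cluster of the RT1 complex on chromosome 20. On the Rnor_6.0 build the RT1-CE2 feature runs from 4638662 to 4943564, a span of 304903 bases that contains 22 other features, 5 of them RT1 genes. RT1-CE6 lies inside it, at 4673842 to 4677506. RT1-CE2 collected 12.1 intron reads for every exon read, 11091 against 919, so its exon reads are a small part of what lies under its span. RefSeq on the GRCr8 assembly lists RT1-CE2 as protein coding and RT1-CE6 as a long non-coding RNA.

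RT1-CE2 was present at 7.61 and 5.47 CPM in the YFP libraries, 9.85 and 9.77 with WT, 4.42 and 7.09 with S280A, and 2.90 and 2.28 with S280D. The S280D libraries were the lowest of the 8 and the WT libraries the highest, while those of YFP and S280A overlapped. The counts behind these levels were small, between 50 and 197 total reads and between 28 and 81 unique reads per library. RT1-CE6 stood at 0.293 and 0.358 CPM with YFP, 0.400 and 2.21 with WT, 0.281 and 0.644 with S280A, and 3.19 and 1.68 with S280D. WT replicate 2 and the S280D libraries held 37, 132 and 37 reads, and the other 5 libraries 4 to 8. Its unique reads numbered 13 and 3 in the S280D libraries, 4 in WT replicate 2 and none in the other 5. A level of RT1-CE6 is thus mostly a level of reads that also match other copies.

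B2m, the light chain shared by class I molecules, was the most abundant member. It stood at 3530 and 2600 CPM with YFP, 5000 and 4561 with WT, 3519 and 3509 with S280A, and 3549 and 3287 with S280D. The WT libraries were above all 6 others, which overlapped among themselves. The gene lies on chromosome 3 at 114087286 to 114093309.

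Tap1, one chain of the peptide transporter, stood at 462 and 410 CPM with YFP, 397 and 444 with WT, 386 and 518 with S280A, and 292 and 343 with S280D. Tapbp, which bridges transporter and heavy chain, stood at 210 and 180 CPM with YFP, 182 and 197 with WT, 170 and 215 with S280A, and 128 and 142 with S280D. For both genes the S280D libraries were the lowest of the 8 and the other 6 overlapped. Tap1 lies on chromosome 20 at 3979034 to 3989669 and Tapbp at 5468055 to 5476007.

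Psmb8, the inducible counterpart of Psmb5, stood at 39.5 and 38.2 CPM with YFP, 32.2 and 33.2 with WT, 27.3 and 40.1 with S280A, and 24.5 and 26.3 with S280D. Psmb9, the counterpart of Psmb6, stood at 104 and 82.8 CPM with YFP, 90.5 and 85.9 with WT, 59.8 and 85.4 with S280A, and 47.0 and 54.1 with S280D. Psmb10, the counterpart of Psmb7, stood at 283 and 201 CPM with YFP, 234 and 238 with WT, 223 and 339 with S280A, and 145 and 179 with S280D. All 3 genes were lowest in the S280D libraries, and S280A replicate 1 was nearest to them for Psmb8 and Psmb9. Psmb9 (3973419 to 3978845), Tap1 and Psmb8 (3990612 to 3993769) are neighbours on chromosome 20, whereas Psmb10 lies on chromosome 19 at 37909545 to 37912027.

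**Figure D2:**
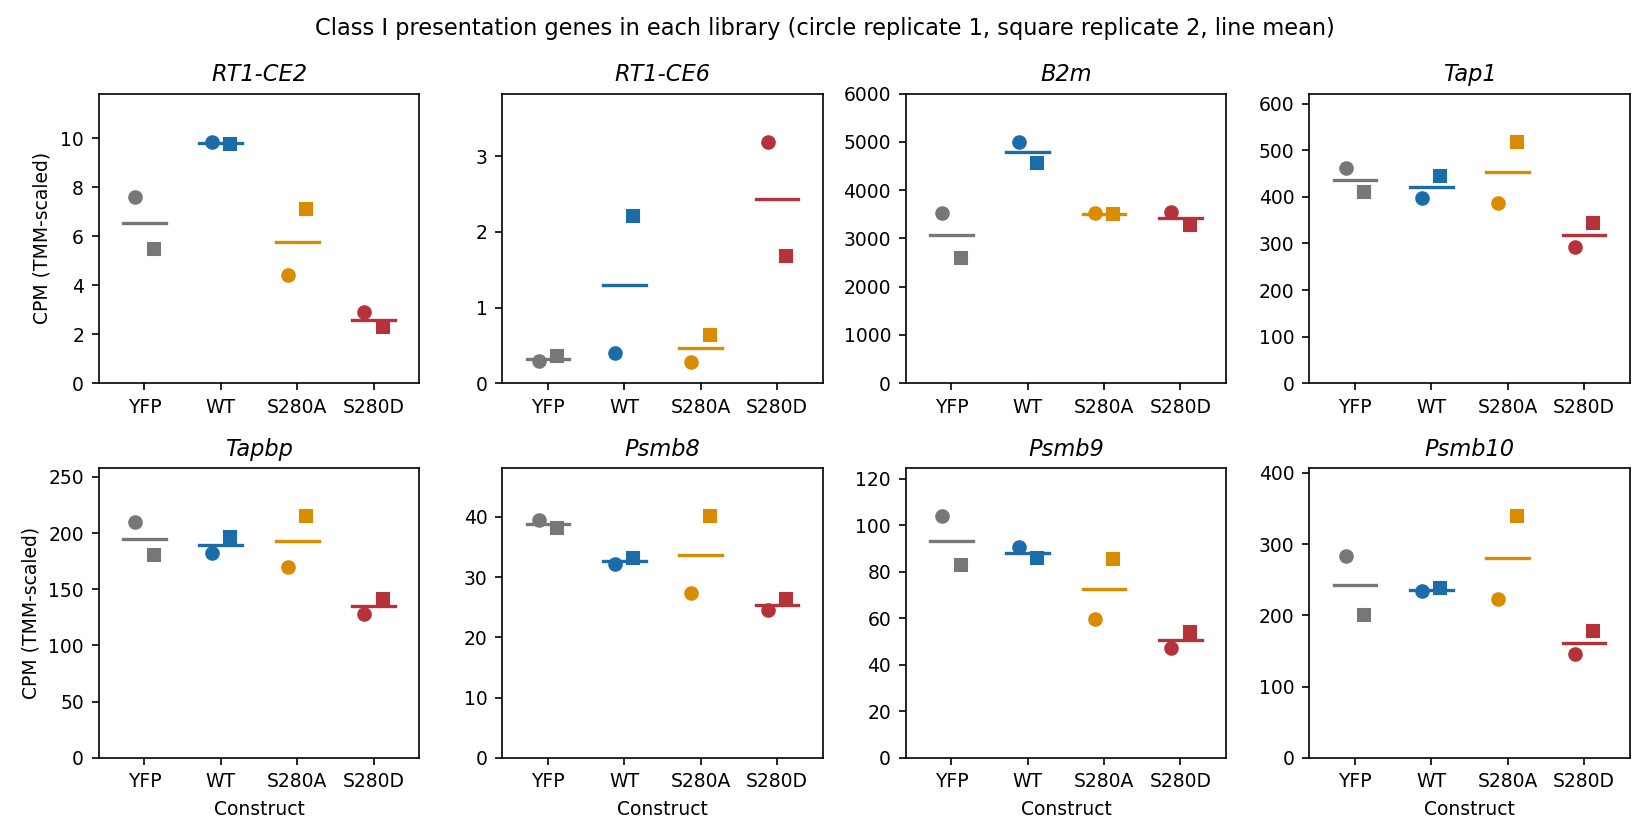
Level of each member in CPM after TMM scaling (vertical, from 0) by construct, with circles for replicate 1, squares for replicate 2 and lines for group means. In 6 of the 8 panels, all but RT1-CE6 and B2m, both S280D points lie below every other point; in B2m the WT points, 5000 and 4561, lie above all others.

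Across genes, levels were compared per kilobase of exon, averaged over the 8 libraries. B2m stood at 2022 CPM per kb, far above the heavy chains RT1-CE2 at 2.00 and RT1-CE6 at 0.634. Psmb10 reached 231 CPM per kb, Tapbp 114, Tap1 113, Psmb9 83.1 and Psmb8 15.8. Tap1 and Tapbp are not separated by their spread over libraries, 81.1 to 144 and 81.7 to 137 CPM per kb. The RT1 class I features together held 674 to 1205 CPM, of which RT1-CE2 and RT1-CE6 made up 0.536% to 1.00%. RT1-A1, a classical heavy chain that is not a member, led with 272 to 533 CPM, at 28.8% unique reads.

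With S280D, most of the class I presentation members were lower than with YFP. RT1-CE2, Tap1, Tapbp, Psmb8, Psmb9 and Psmb10 fell, B2m did not pass the test, and RT1-CE6 rose. By edgeR's quasi-likelihood test with Benjamini-Hochberg adjustment, 7 of the 8 members passed a threshold of 0.05, 6 lower and 1 higher, where 30.7% of all 12407 tested features passed, 13.7% lower and 17.1% higher. RT1-CE6 passed the filter mainly through the libraries in which it is high, and without it 6 of 7 members were lower. The median log2 fold change over the 8 members was -0.56, against -0.02 over all features. In the same 6 genes both S280D libraries lay below the other 6 libraries, which held for 11.8% of all features, and below both YFP libraries, which held for 35.7%.

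RT1-CE2 fell to 2.59 ± 0.44 CPM (SD, n = 2) from 6.54 ± 1.52, a log2 fold change of -1.31 ± 0.27 (SE, edgeR adjusted p = 0.0062). Psmb9 fell by 45.8%, a log2 fold change of -0.88 ± 0.17 (edgeR adjusted p = 0.0047). These were the largest decreases among the members. Psmb8 fell by 34.6% (edgeR adjusted p = 0.020), Tapbp by 31.0% (edgeR adjusted p = 0.016) and Tap1 by 27.1% (edgeR adjusted p = 0.042). Psmb10 fell by 33.2%, just inside the threshold (edgeR adjusted p = 0.0495), and it missed the threshold with RLE size factors, a 1 CPM filter, a fit of only the 4 libraries compared, a replicate block or an exon length offset. B2m had a log2 fold change of 0.16 ± 0.15 (edgeR adjusted p = 0.44). RT1-CE6 had a log2 fold change of 2.90 ± 0.75 (edgeR adjusted p = 0.015), a rise from 0.325 ± 0.046 to 2.44 ± 1.07 CPM.

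The same 6 decreases passed on unique reads, 6 of the 7 members testable there, where 14.8% of features were lower. The log2 fold change was -1.13 ± 0.32 for RT1-CE2 (edgeR adjusted p = 0.018) and -0.68 ± 0.19 for Psmb8 (edgeR adjusted p = 0.018). The rise of RT1-CE6 was not tested there. It rests on 132 and 37 total reads in the S280D libraries, of which 13 and 3 were unique.

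These calls leaned on single libraries and on the sequencing lane named in the column headers. Both YFP libraries ran on lane 1, both WT libraries on lane 2, and the S280A and S280D libraries 1 on each. Within lane 1, S280D replicate 1 over the YFP mean gave log2 ratios of -1.17 for RT1-CE2, 3.29 for RT1-CE6, 0.21 for B2m, -0.58 for Tap1, -0.61 for Tapbp, -0.66 for Psmb8, -0.99 for Psmb9 and -0.74 for Psmb10. With lane as a covariate, 3 members passed (RT1-CE2, RT1-CE6 and Psmb9), and Tap1 (-0.40, adjusted p = 0.17), Tapbp (-0.49, 0.088), Psmb8 (-0.50, 0.12) and Psmb10 (-0.50, 0.19) kept their sign. The covariate lowered calls over all features too, to 13.3% from 30.7%. Leaving out YFP replicate 1 or either S280D library also lowered the calls over all features. Without YFP replicate 1 only Psmb9 passed, and RT1-CE2 had a log2 fold change of -1.06 (adjusted p = 0.051). Without S280D replicate 1 only RT1-CE2 passed, and Psmb9 had a log2 fold change of -0.77 (adjusted p = 0.060), Tapbp -0.44 (0.17) and Tap1 -0.33 (0.33). Without S280D replicate 2, RT1-CE2, RT1-CE6, Tapbp and Psmb9 passed. The WT libraries enter this contrast through the shared spread alone, and without replicate 1 or 2 of WT Tap1 (adjusted p = 0.063 and 0.067) and Psmb10 (0.071 and 0.074) missed the threshold.

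**Figure D3:**
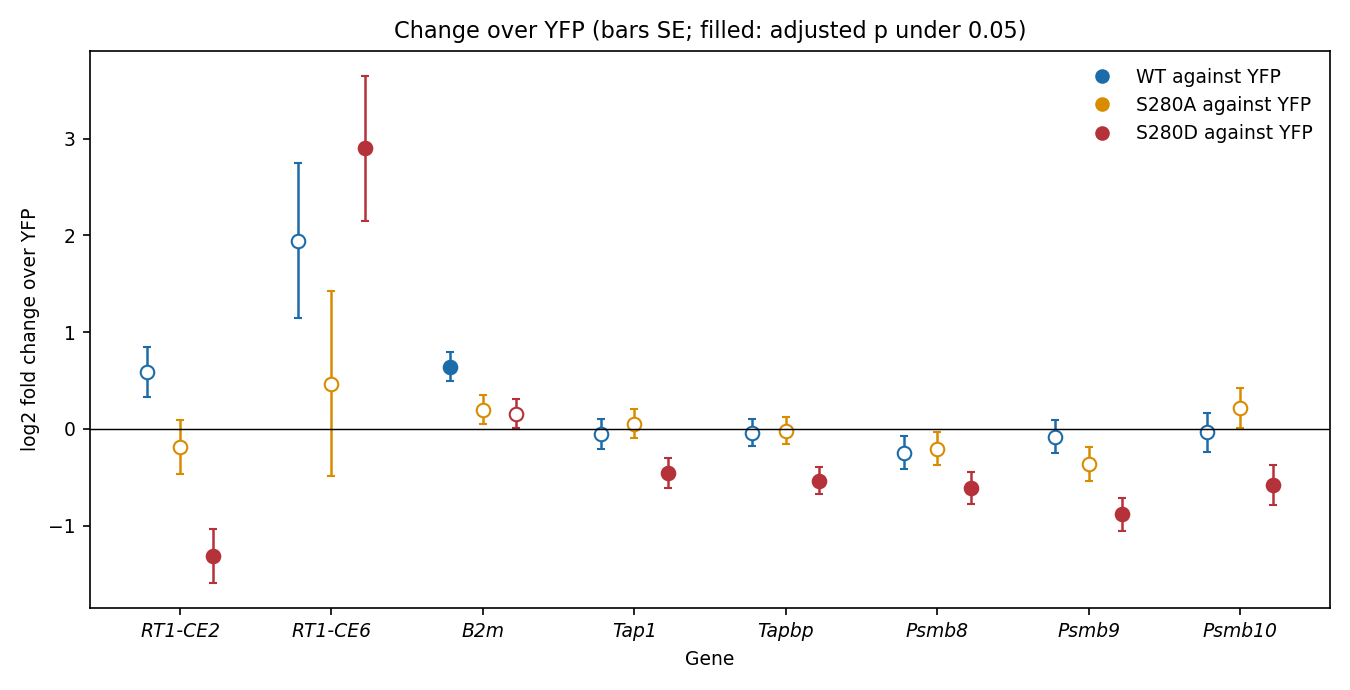
Log2 fold change over YFP (vertical) of each member with WT, S280A and S280D, with standard errors; filled points have an edgeR adjusted p under 0.05. The S280D points of Tap1, Tapbp, Psmb8, Psmb9, Psmb10 and RT1-CE2 lie between -0.46 and -1.31, and B2m is the member that passed with WT. The 3 series share the YFP libraries.

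Stretches of the members' promoters are shown with the letters of interferon and NF-kappaB motifs in capitals. All 9 symbols have a window in the RefSeq promoter table on GRCr8, from 250 bases before to 50 after the start. 4 motifs were searched on both strands. The core of the interferon-stimulated response element (ISRE), which IRF proteins bind, was spelled GAAA, any 2 bases, GAAA. The NF-kappaB motif was GGG, any 2 bases, TT, any 1 base, CC, and the gamma-activated site (GAS) was TTCNNNGAA. The DR1 element of PPAR with RXR was 2 copies of AGGTCA with any 1 base between. Of 33469 windows, 3.92% held the ISRE core, 5.00% the NF-kappaB motif, 8.87% GAS and 0.0538% DR1. Each stretch reads 5′ to 3′ on the strand of its gene, and the coordinates are on GRCr8.
B2m, chr3:129549168-129549214, plus strand, 162 to 116 bases before the start: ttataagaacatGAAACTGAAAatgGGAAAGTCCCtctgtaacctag
Tap1, chr20:4668577-4668676, minus strand, 133 to 34 bases before the start: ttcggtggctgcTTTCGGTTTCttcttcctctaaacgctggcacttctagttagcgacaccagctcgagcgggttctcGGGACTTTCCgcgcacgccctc
Tap2, chr20:4652316-4652349, minus strand, 53 to 20 bases before the start: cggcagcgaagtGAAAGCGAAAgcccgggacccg
Tapbp, chr20:4967878-4967950, minus strand, 73 to 1 bases before the start: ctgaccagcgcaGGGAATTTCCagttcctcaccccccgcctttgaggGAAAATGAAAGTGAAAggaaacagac
Psmb10, chr19:50743293-50743377, minus strand, 85 to 1 bases before the start: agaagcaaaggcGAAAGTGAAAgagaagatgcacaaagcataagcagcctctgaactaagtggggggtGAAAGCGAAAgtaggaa

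The ISRE letters thus occur in the windows of B2m, Tap1, Tap2, Tapbp and Psmb10, with 2 matches each in Psmb10 and Tapbp, where they overlap, and also in Psmb8, where the match runs from 4 bases before the start into the transcript. The NF-kappaB letters occur in B2m, Tap1 and Tapbp. The GAS letters occur in Psmb8, from 245 to 237 bases before the start. None of the 4 motifs was found in the windows of Psmb9, RT1-CE2 or RT1-CE6, which says only that these letters are not there, and the DR1 letters were in none of the 9. Tap1 and Psmb9 start back to back, so the stretch printed for Tap1 lies between the starts of both. The ISRE and NF-kappaB letters are both held by B2m, which did not fall with S280D, and by Tap1 and Tapbp, which did. Psmb9 and RT1-CE2, which also fell, hold none of the 4 motifs. Whether these motifs bear on the changes was not tested. A match is a description of the sequence and not evidence of a bound site.

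Other genes of the pathway were read from fixed lists. With S280D against YFP, 17.1% of all features were higher and 13.7% lower. Among 20 tested heavy chain features other than the members, none rose and 8 fell with S280D against YFP, with a median of -0.47 against -0.02 over all features. Fcgrt, the neonatal Fc receptor, fell by 0.74 on the log2 scale, RT1-A1 by 0.72, RT1-T24-4 by 1.15 and RT1-CE16 by 0.78 (edgeR adjusted p = 0.0053, 0.0064, 0.0074 and 0.012). On unique reads 5 of these 8 calls held. RT1-T24-4, at 28.4% unique reads, had a log2 fold change of -0.69 there (edgeR adjusted p = 0.061), against -0.65 for RT1-A1 (adjusted p = 0.010). RT1-M6-1, RT1-N3 and RT1-T24-2 had positive values that did not pass. RT1 class I reads summed to 1142 and 831 CPM with YFP, 1205 and 1194 with WT, 878 and 1060 with S280A, and 674 and 725 with S280D, lowest in the S280D libraries.

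**Figure D4:**
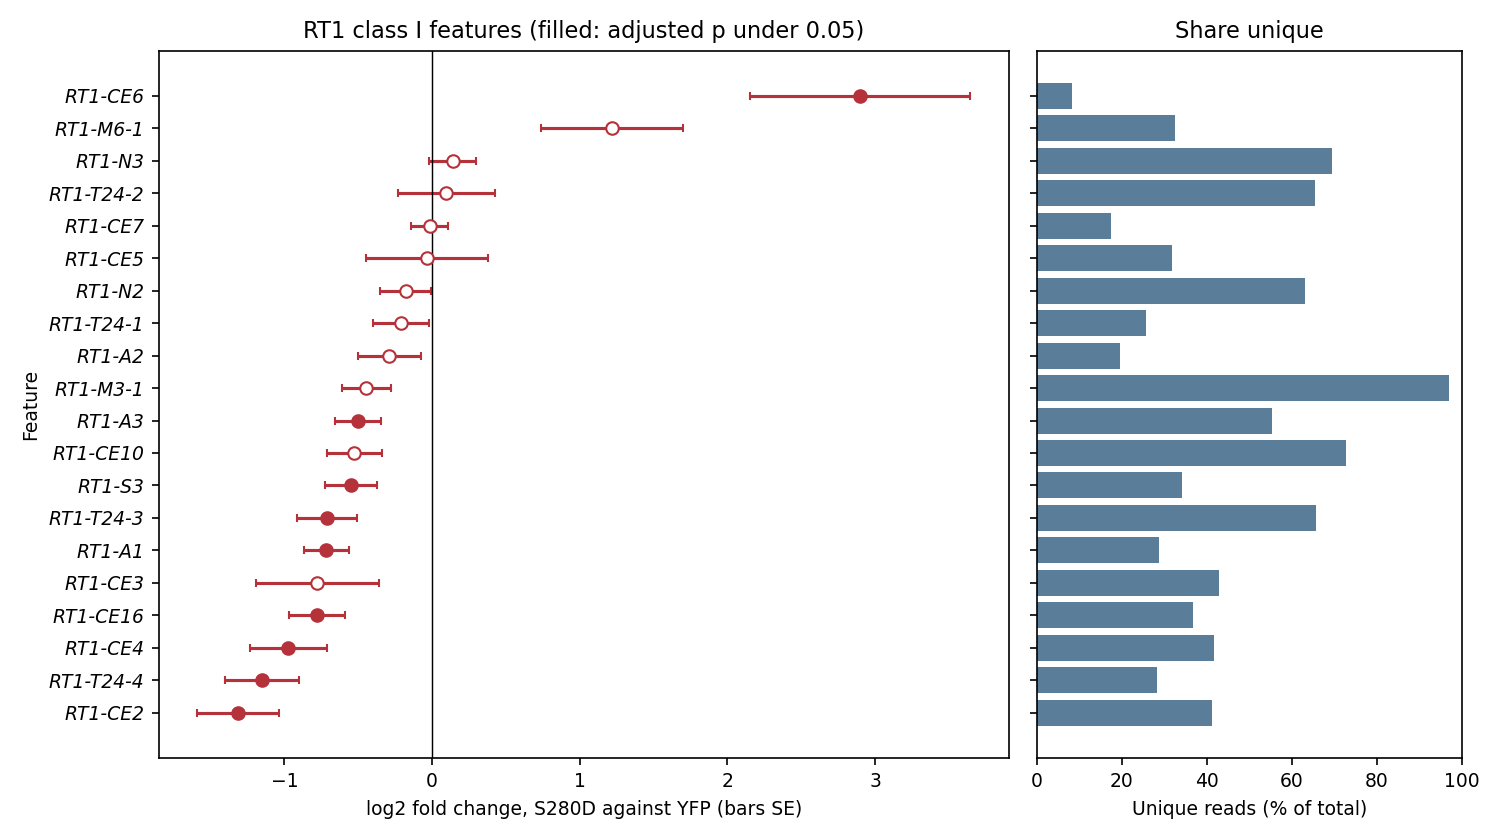
Left, log2 fold change of S280D over YFP (horizontal, with standard errors) for the 20 RT1 class I features tested, the members RT1-CE2 and RT1-CE6 included; filled points have an edgeR adjusted p under 0.05. Right, unique reads as a percentage of total reads; RT1-CE2 and RT1-CE6 lie at opposite ends of the left panel, at 41.2% and 8.40% unique reads.

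Among 19 tested proteasome genes outside the members, 8 fell and 1 rose with S280D against YFP, with a median of -0.27. The constitutive counterparts fell together with the inducible subunits: Psmb6 by 0.87, Psmb7 by 0.53 and Psmb5 by 0.52 on the log2 scale (edgeR adjusted p = 0.0029, 0.0080 and 0.035). Psmb4, a structural subunit, and Psma7, of the outer ring, fell by 0.52 and 0.53 (adjusted p = 0.013 and 0.015). Psma3 was the gene that rose, by 0.46 (adjusted p = 0.025). Psmb6 has 19% unique reads, and on those its log2 fold change was -0.40 (edgeR adjusted p = 0.053). On unique reads 2 genes of the list were higher and 6 lower.

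Since both sets of subunits moved, the inducible to constitutive ratio was taken per exon length in each library, as a description with no test. Psmb8 over Psmb5 was 0.207 and 0.228 with YFP, 0.222 and 0.232 with WT, 0.184 and 0.191 with S280A, and 0.215 and 0.193 with S280D. Psmb9 over Psmb6 was 0.403 and 0.309 with YFP, 0.546 and 0.476 with WT, 0.288 and 0.289 with S280A, and 0.338 and 0.366 with S280D. Psmb10 over Psmb7 was 5.04 and 3.64 with YFP, 5.56 and 5.66 with WT, 4.67 and 6.32 with S280A, and 3.56 and 4.88 with S280D. The S280D ratios fell inside the YFP range for Psmb9, overlapped it for Psmb10, and for Psmb8 1 of 2 lay inside it. Psmb9 over Psmb6 depends on the reads counted. On unique reads it was 2.46 and 2.15 with YFP, 2.57 and 2.42 with WT, 1.32 and 1.5 with S280A, and 1.64 and 1.66 with S280D. There the S280D ratios lay below the YFP range, and the WT ratios overlapped it.

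**Figure D5:**
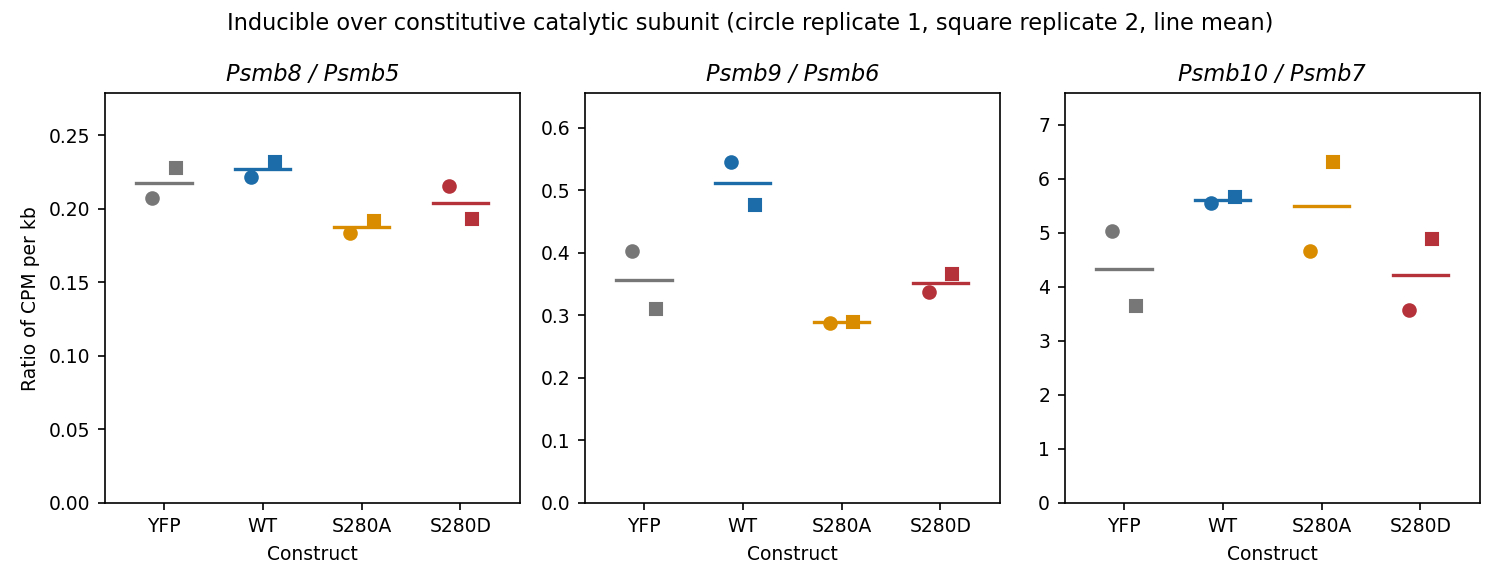
Ratio of CPM per kb of exon (vertical, from 0) of each inducible catalytic subunit to its constitutive counterpart, by construct, with circles for replicate 1, squares for replicate 2 and lines for means. On the total reads shown, Psmb9 over Psmb6 is highest with WT, at 0.546 and 0.476, whereas on unique reads WT and YFP overlap. Psmb10 exceeds Psmb7 in every library, with ratios from 3.56 to 6.32.

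In the loading and trafficking list, 3 of 18 tested genes rose and 4 fell with S280D against YFP. Over all features 17.1% were higher and 13.7% lower. The list had a median of -0.01, against -0.02 over all features. Tpp2, a cytosolic peptidase, rose by 0.86, and the chaperone Calr fell by 0.46, Hspa5 by 0.40 and the tapasin relative Tapbpl by 0.45 on the log2 scale (edgeR adjusted p = 0.0047, 0.015, 0.023 and 0.025). In the list of transactivators and interferon signalling, 4 of 29 rose and 2 fell, both smaller shares than over all features. Among those that rose were Jak2, by 1.12, Atf1, by 0.63, and Jak1, by 0.40 on the log2 scale (edgeR adjusted p = 0.0017, 0.014 and 0.017). Irf7 was 1 of the 2 that fell, by 0.55 (edgeR adjusted p = 0.045). Nlrc5 stood at 13.7 and 12.5 CPM with YFP and 11.8 and 14.1 with S280D, and Irf1 at 105 and 88.2 against 76.4 and 92.1, and neither passed (edgeR adjusted p = 0.93 and 0.36). Of 13 class II genes, 2 were high enough to test and neither passed, with RT1 class II reads between 0.817 and 2.15 CPM in all.

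S280D and S280A, the mimic of phosphorylation and the resistant form, differed in much the same genes. RT1-CE2, Tap1, Tapbp, Psmb9 and Psmb10 were lower with S280D and RT1-CE6 was higher. This made 6 of 8 members called, 5 lower and 1 higher, where 39.3% of all features were called, 18% lower and 21.3% higher. Without RT1-CE6, which passed the filter mainly through the libraries in which it is high, 5 of 7 members were lower. This comparison shares its S280D libraries with the one against YFP. Both S280D libraries were below both S280A libraries for 6 members, which held for 37.7% of features, and the median of the members was -0.51 against -0.01.

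The difference was -1.13 ± 0.28 for RT1-CE2 (edgeR adjusted p = 0.011), -0.80 ± 0.20 for Psmb10 (0.012) and -0.52 ± 0.14 for Tapbp (0.014), all log2 fold changes. Psmb9 followed at -0.52 ± 0.17 (edgeR adjusted p = 0.034) and Tap1 at -0.51 ± 0.15 (0.023). Psmb8, at -0.41 ± 0.17, missed the threshold (edgeR adjusted p = 0.080), and B2m stood at -0.04 ± 0.15 (0.85). RT1-CE6 was higher by 2.43 ± 0.75 on the log2 scale (edgeR adjusted p = 0.025). The 5 decreases also passed on unique reads, among 7 members tested, where 19.1% of features were lower.

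The size of these differences was not even over the lanes. On lane 1, S280D replicate 1 over S280A replicate 2 gave log2 ratios of -0.83 for Tap1, -0.75 for Tapbp, -0.71 for Psmb8, -0.86 for Psmb9 and -1.22 for Psmb10. On lane 2, S280D replicate 2 over S280A replicate 1 gave -0.17, -0.26, -0.05, -0.14 and -0.32 for the same genes. RT1-CE2 was -1.29 on lane 1 and -0.96 on lane 2, and RT1-CE6 2.31 and 2.58. Each lane holds 1 library of each group, so this has no replicate check. With lane as a covariate the calls other than Psmb9 (adjusted p = 0.058) remained, where 32.3% of all features were called. Leaving out S280A replicate 2 or either S280D library lowered the calls over all features as well. Without S280A replicate 2 none of the 8 members passed, and the adjusted p of these 6 lay between 0.084 and 0.32, with log2 fold changes of -0.77 for RT1-CE2, -0.48 for Psmb10 and -0.26 for Psmb9. Without S280D replicate 1 RT1-CE2 alone passed, and without S280D replicate 2 RT1-CE2 (adjusted p = 0.054) and Psmb9 (0.053) did not. Psmb9 also missed the threshold without WT replicate 1 (0.052), in a fit of only the 4 libraries compared (0.056) and with an exon length offset (-0.32, 0.11), and RT1-CE6 missed it without S280A replicate 1 (0.13).

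Among the pathway lists, none of the 20 other heavy chain features was higher and 7 were lower with S280D than with S280A, led by Fcgrt, at -0.61, and RT1-A1, at -0.58 (edgeR adjusted p = 0.0093 and 0.012). Proteasome genes were 3 higher and 9 lower of 19. Psma3 was 0.79 higher, and Psmb6 was lower by 0.81, as were the activator subunits Psme2 by 0.82 and Psme1 by 0.88 on the log2 scale (adjusted p = 0.0024, 0.0034, 0.0040 and 0.012). On unique reads Psme2 did not pass (-0.60, adjusted p = 0.082). Loading genes were 1 higher and 4 lower of 18, and interferon signalling genes 6 higher and 3 lower of 29. Over all features 21.3% were higher and 18% lower, so the counts of these last lists are near or below the background. Jak2, a kinase of the interferon-gamma receptor, was higher by 1.25 (edgeR adjusted p = 0.0017), and Irf7 was lower by 0.65 (0.018).

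S280D and WT, which carry the same receptor with and without the aspartate, differed in 1 member by the test. RT1-CE2 was lower with S280D by 73.3%, a log2 fold change of -1.90 ± 0.27 (edgeR adjusted p = 0.048), where 5 of 12407 features passed, 0.0403% in all and 0.0403% lower. The other members did not pass. Their log2 fold changes were -0.80 for Psmb9 (adjusted p = 0.26), -0.55 for Psmb10, -0.49 for Tapbp, -0.48 for B2m, -0.40 for Tap1, -0.36 for Psmb8 and 0.96 for RT1-CE6 (adjusted p from 0.59 to 0.95). Both S280D libraries were below both WT libraries for 7 members, which held for 21.2% of features. On lane 2, S280D replicate 2 over the WT mean gave -2.11 for RT1-CE2, -0.70 for Psmb9, -0.54 for B2m and -0.29 for Tap1.

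The call for RT1-CE2 did not hold with unique reads (-1.75, adjusted p = 0.091), RLE size factors (0.056), a 1 CPM filter (0.055), a lane covariate (0.060), the replicate block (0.13) or with any S280D or WT library left out (0.23 to 0.50), at log2 fold changes between -2.20 and -1.75. Other settings called more members. DESeq2 called RT1-CE2 and Psmb9, where 0.314% of features were called, as did a fit of only the 4 libraries compared, where 0.269% were. With no filter on low counts B2m and Psmb10 were called besides these, 4 members in all, where 0.637% of features were called. No gene of the 5 pathway lists passed in this comparison.

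WT PPARalpha differed from YFP in B2m alone among the members. B2m rose from 3065 ± 657 to 4781 ± 311 CPM (SD, n = 2), a log2 fold change of 0.64 ± 0.15 (edgeR adjusted p = 0.016). This was 1 of 8 members, where 19.6% of features were called and 12.2% were higher, so the count is near the background. On unique reads B2m again passed alone (adjusted p = 0.0086), where 13.9% of features were higher. RT1-CE2 had a log2 fold change of 0.59 ± 0.26 (adjusted p = 0.13) and RT1-CE6 of 1.94 ± 0.80 (0.11), while Tap1, Tapbp, Psmb8, Psmb9 and Psmb10 lay between -0.25 and -0.04 (adjusted p from 0.32 to 0.92). B2m missed the threshold without WT replicate 1 (0.57, adjusted p = 0.15), without WT replicate 2 (0.70, 0.057) and with a lane covariate (0.69, 0.20). Since both YFP libraries ran on one lane and both WT libraries on the other, no within-lane value exists. The covariate is estimated from the S280A and S280D libraries. With it 9 of 12407 features passed, 0.0725%, against 19.6% without it. Leaving out either WT library also lowered the calls over all features. The list calls that follow come from the fit without a lane term.

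Among the lists, WT against YFP gave 2 higher and 1 lower of 20 other heavy chain features. Over all 12407 features, 12.2% were higher and 924 were lower, and no list exceeded the share that was higher. The proteasome list, with 3 of 19 lower, exceeded the share that was lower. RT1-A2 rose by 0.90 and RT1-CE7 by 0.55, and Fcgrt fell by 0.65 on the log2 scale (edgeR adjusted p = 0.017, 0.016 and 0.015). RT1-A2 and RT1-CE7 have 19.5% and 17.6% unique reads, and on those RT1-A2 passed (0.95, adjusted p = 0.024) and RT1-CE7 did not (0.53, 0.070). Proteasome genes were 1 higher and 3 lower of 19, with Psmb6 lower by 0.60 and Psmb7 by 0.41 (edgeR adjusted p = 0.022 and 0.034). On unique reads Psmb6 did not pass (-0.19, adjusted p = 0.38). Loading genes were 2 higher, Tpp2 and Erap1, and 1 lower, Calr, of 18. Of 29 interferon signalling genes 2 rose, Jak2 by 1.21 and Atf1 by 0.61.

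S280A, the resistant form, showed no called member against YFP. With edgeR, 0 of 8 members passed and 0 had an unadjusted p under 0.05, where 0.0403% of all features passed. DESeq2 also called 0 members, where 0.693% of features were called. Psmb9 had the largest difference of the 7 members other than RT1-CE6, -0.36 ± 0.17 (adjusted p = 0.45), followed by Psmb10 at 0.21 ± 0.20 and Psmb8 at -0.21 ± 0.17. The S280A libraries lay far apart in several members, with Psmb10 at 223 and 339 CPM and Tap1 at 386 and 518. On lane 1, S280A replicate 2 over the YFP mean gave 0.49 for Psmb10, 0.25 for Tap1 and -0.13 for Psmb9. A missed threshold at this spread does not show that the groups are alike. No gene of the 5 lists passed.

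Against WT, S280A was lower in B2m, at 3514 ± 7.28 against 4781 ± 311 CPM (SD, n = 2). The log2 fold change was -0.44 ± 0.15 (edgeR adjusted p = 0.046), making 1 of 8 members called, where 26% of all features were called and 15.9% of all features were lower, so the count is below the background. The call held on unique reads (adjusted p = 0.036), where 17.2% of features were lower. It did not hold with RLE size factors (0.050), with a lane covariate (0.12) or without any 1 of the 6 libraries of WT, S280A and S280D (adjusted p from 0.068 to 0.26). With the lane covariate 8% of all features were called, against 26% without it. RT1-CE2 had a log2 fold change of -0.78 ± 0.27 (adjusted p = 0.054) and -1.15 within lane 2. It passed in some of the 17 alternatives, over which its log2 fold change lay between -1.12 and -0.47. Tap1, Tapbp, Psmb8, Psmb9 and Psmb10 lay between -0.28 and 0.25 and did not pass. Of the other heavy chains, Fcgrt was higher by 0.53, and RT1-A2 and RT1-CE7 were lower by 0.96 and 0.41 on the log2 scale (adjusted p = 0.027, 0.013 and 0.039). On unique reads RT1-CE7 did not pass (-0.32, adjusted p = 0.25), whereas Fcgrt (0.018) and RT1-A2 (0.035) passed.

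The Tap2 features lie apart on chromosome 20, Tap2_1 at 3995543 to 4009587, next to Psmb8, and Tap2_2 at 5198257 to 5212624. Unique reads made up 2.26% and 2.33% of theirs, so how reads were divided between them cannot be told from the table. Tap2_1 stood at 187 and 141 CPM with YFP, 157 and 158 with WT, 105 and 144 with S280A, and 98.5 and 80.7 with S280D. Tap2_2 stood at 41.9 and 38.1 CPM with YFP, 52.3 and 75.4 with WT, 86.2 and 89.8 with S280A, and 45.9 and 69.1 with S280D. Tap2_1 was lowest with S280D and Tap2_2 lowest with YFP, and the share of Tap2_2 in the pair ran from 18.3% in YFP replicate 1 to 46.1% in S280D replicate 2.

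Tap2_1 fell with S280D against YFP, with a log2 fold change of -0.87 ± 0.18 (edgeR adjusted p = 0.0058), and Tap2_2 had 0.52 ± 0.20 (0.073). Summed as 1 gene, Tap2 stood at 229 and 179 CPM with YFP, 210 and 233 with WT, 191 and 234 with S280A, and 144 and 150 with S280D. The sum was lowest in the S280D libraries, as for Tap1, its partner in the transporter. It fell with S280D by 0.47 on the log2 scale against YFP (adjusted p = 0.032) and by 0.53 against S280A (0.016), and passed in none of the other 4 comparisons. The rise of Tap2_2 with WT (0.67, adjusted p = 0.040) was absent from the sum (0.12, 0.59).

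The genes whose pattern over the 8 libraries was most like that of each member were taken by the smallest root mean square difference of centred log2 CPM, among 9538 genes. Tap1 and Tapbp differed from each other by 0.051, as little as each did from its nearest non-member, Cndp2 at 0.048 for Tap1 and Tmco4 at 0.058 for Tapbp, and Htra2 came second for both, at 0.051 and 0.064. Psmb8 was nearest to Rras, at 0.072, and Ube2l6, at 0.075. Psmb9 was nearest to heavy chain features, RT1-CE16 at 0.13 and RT1-A1 at 0.14. Psmb10 was nearest to Psme2, at 0.082, and Irf7, at 0.087.

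B2m was nearest to Pdk3 and Crcp, at 0.097 and 0.10, and differed from every other member by at least 0.33. RT1-CE2 was nearest to RT1-T24-4 and C4b, at 0.27 and 0.30. RT1-CE6 had no close neighbour, with Zfp518a at 0.63 and Zmat1 at 0.64. The libraries share depth and lane, so these distances describe the samples.

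In the authors' deposited table, 5 of the 8 members passed a false discovery rate of 0.05 in S280D against YFP, where 24.5% of the 12407 features tested here did. The authors' deposited table has 5 members passing in S280D against S280A (32.3% of features), 2 in S280D against WT (0.403%) and 1 in WT against YFP (17.1%). RT1-CE6, which passed the filter used here mainly through libraries in which it is high, is 1 of the 5 against YFP and against S280A. None passed in the authors' deposited table in S280A against YFP (0.572%) or S280A against WT (21.2%). For S280D against YFP the authors' deposited table gives signed fold changes of -2.45 for RT1-CE2, -1.83 for Psmb9, -1.51 for Psmb8, -1.43 for Tapbp and 7.53 for RT1-CE6 among the passing members. In the authors' deposited table Tap1, at -1.36, and Psmb10, at -1.48, missed the threshold there, at 0.080 and 0.070.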

How the data were processed

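Poly(A) RNA of 8 H9C2 libraries was sequenced, 2 for each of 4 constructs. The authors deposited 1 table of raw counts per gene (total, unique and intron reads), not normalized, per the file headers, on the Rnor 6.0 build per the submitters' processing notes. On aligner, annotation and strand setting, nothing is given in the sources used here. The deposited table also holds the authors' p-values adjusted for false discovery and signed fold changes, used only where named. The second WT library is titled 2 and described as 3, and is replicate 2 here.

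The main test used edgeR 4.0.16 in R 4.3.3 on total exon reads (filterByExpr, TMM, quasi-likelihood, all 8 libraries, 4 residual degrees of freedom), 2-sided, in 6 contrasts, with Benjamini-Hochberg adjustment over 12407 features and a threshold of 0.05. The biological coefficient of variation was 0.133. Fold changes are log2, second group as base. The fit was tested on simulated data. Alternatives were RLE size factors, no filter, a 1 CPM filter, only the 4 libraries compared, a replicate block, a lane covariate, unique reads, an exon length offset, DESeq2 1.42.0 and each library left out; summing the Tap2 copies was added after seeing the data. A replicate or lane term leaves fewer residual degrees of freedom.

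Libraries held 14018785 to 39526013 exon reads. The reads carry no molecular identifiers, so PCR copies count as reads. In each group the 2 libraries differed from each other by more than sampling noise. Members and lists were chosen with earlier results of these data known. Named were the members, Psmb5 to Psmb7, Nlrc5, Irf1, tested RT1 class I features, the 2 genes most like each member, and per list up to 4 genes with the smallest adjusted p. Tap2_1 and Tap2_2 are named outside this rule, as is Psma3 against YFP, chosen after its values were seen. An item withheld for evaluation is not reported here. Marker genes come from the marker lists. Promoter sequences are from RefSeq on GRCr8, and matches were found by their letters.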

Additional observations from a re-analysis of the deposited data

How the results depend on the processing

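Of the 19 calls of single members or Tap2 features, DESeq2 and no filter on low counts kept all 19, an exon length offset, the 1 CPM filter, a fit of only the 4 libraries compared and the replicate block 17 each, RLE size factors 16, unique reads 14 of the 17 testable, and a lane covariate 10. Leaving out 1 library kept between 5 (S280D replicate 1) and 18 (YFP replicate 2), and no called value changed sign in any of these. RT1-CE2 and RT1-CE6 rest on few reads, which limits their precision. With a lane covariate, 13.3% of all features were called in S280D against YFP and 0.0725% in WT against YFP. The share was 8% in S280A against WT, 32.3% in S280D against S280A and 0.00806% in S280D against WT. Leaving out 1 library often changed the calls over all features as well. Members called in S280D against YFP were 3 in place of 7 with a lane covariate and 1 to 7 with 1 library left out. In S280D against S280A they were 0 to 6 in place of 6 with 1 library left out. In WT against YFP they were 2 in place of 1 with no filter, 0 with a lane covariate and 0 to 1 with 1 library left out. In S280A against WT they were 0 with RLE size factors in place of 1, 3 with no filter and 2 with only the 4 libraries. They were 2 there with a length offset and 0 to 2 with 1 library left out. A lane covariate left 1 member called in S280A against WT, which was not B2m. In S280D against WT they were 0 with RLE size factors, the 1 CPM filter, a lane covariate or unique reads in place of 1, 4 with no filter, 2 with only the 4 libraries, 2 with DESeq2 and 0 to 1 with 1 library left out. S280A against YFP stayed at 0 in all of these.

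Deviations of same-numbered libraries correlated at -0.173 to -0.092 between YFP and each receptor group and at 0.118 to 0.205 among the 3 receptor groups, so not every pair was positive, and the numbers were not taken to pair the samples. With the replicate number as a block, S280D against WT had 0 members called in place of 1, and Psmb10 in S280D against YFP -0.60 (adjusted p = 0.062); counts in the other comparisons stayed within 1.5 times.

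Among values that did not pass, signs changed as follows, in log2 fold changes. With an exon length offset B2m in S280D against S280A was 0.048, Psmb8 in S280A against WT -0.0035, Tapbp -0.067 in S280A against WT and 0.029 in WT against YFP, Psmb9 0.052 and Psmb10 0.091 in WT against YFP. With a lane covariate WT against YFP gave Tap1 0.042, Tapbp 0.049, Psmb9 0.069, Psmb10 0.12 and Tap2_1 0.32, S280A against YFP gave RT1-CE2 0.042 and Tapbp 0.022, and S280A against WT gave Tapbp -0.027 and Psmb8 -0.083. With no filter Tapbp in S280A against WT was -0.0066. On unique reads Tap2_1 in S280D against S280A was 0.017 and Tap2_2 in S280D against WT 0.093. Summing the Tap2 copies gave 0.12 in WT against YFP and 0.059 in S280A against YFP, opposite to Tap2_1, and -0.059 in S280A against WT and -0.47 in S280D against YFP, opposite to Tap2_2, the last of which passed.

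With 1 library left out, these values reached both signs, and none of them passed with all 8. In S280A against YFP the range ran for RT1-CE2 from -0.54 to 0.12, RT1-CE6 from -0.20 to 0.96, B2m from -0.0092 to 0.43, Tap1 from -0.16 to 0.24, Tapbp from -0.18 to 0.14, Psmb8 from -0.49 to 0.041 and Psmb10 from -0.10 to 0.48. In S280A against WT the range ran for RT1-CE6 from -2.27 to 0.20, Tap1 from -0.091 to 0.30, Tapbp from -0.12 to 0.18, Psmb8 from -0.23 to 0.29 and Psmb10 from -0.053 to 0.52. In S280D against YFP the range ran for B2m from -0.048 to 0.39. In S280D against S280A the range ran for B2m from -0.081 to 0.016. In WT against YFP the range ran for Tap1 from -0.14 to 0.033, Tapbp from -0.15 to 0.067, Psmb9 from -0.24 to 0.088, Psmb10 from -0.26 to 0.23 and Tap2_1 from -0.25 to 0.16. In S280D against WT the range ran for Tap2_2 from -0.47 to 0.14.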
